A study of Homo sapiens with 9 samples.

Results

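Interferon-stimulated genes are the genes that a cell switches on after it senses interferon, the secreted protein that warns of virus infection. A list of 41 of them was followed here. Each gene was read on the probe set of the array that names that gene alone, and where several did so the one with the highest mean level over all arrays was taken. Such a probe set was found for 40 of the 41 genes, out of 19775 genes in all. STAT2 was not analysed here. BST2, which encodes tetherin, an inhibitor of virus release, lay under the filter on dim probe sets, and the other 39 members were tested.

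The study measured transcripts in HEK293 cells, an established line derived from human embryonic kidney, after transient transfection with surfactant protein C, a small hydrophobic protein that alveolar type II cells of the lung normally make. LQ cells received the protein with the L188Q substitution, Ex4 cells the protein lacking exon 4, and WT cells the normal protein. Each group has 3 Affymetrix arrays. The cells are not lung cells, all 3 groups carry a transfected surfactant protein C, and cells without it were not analysed here.

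Values are intensities on a linear scale. Changes are differences of log2(value + 16), given ± SE. SFTPC, the transfected gene, had intensities of 132058, 108963 and 124170 in LQ cells and 134379, 97629.7 and 169241 in Ex4 cells, against 173159.7, 261955 and 190959.7 in WT cells on its brightest probe set. On another of its 5 probe sets the Ex4 arrays had only 914.4, 39.1 and 28.7, against 158962 to 239964 in WT cells, which checks the deletion label. The labels do not state that replicates are separate cultures, and p-values therefore cover only how far these arrays lie apart, possibly for technical reasons. Array medians were 303.9 to 371.8 in LQ, 316.1 to 434.3 in Ex4 and 506.4 to 524.4 in WT cells, while trimmed means were equal within 1493.32 to 1494.85. No 2 arrays were identical, with correlations between 0.8425 and 0.9595 across tested probe sets.

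In the pathway as it is generally known, RNA sensors such as MDA5 lead to production of interferon beta, which binds the receptor pair IFNAR1 and IFNAR2 on the same or a neighbouring cell. The kinases JAK1 and TYK2 then activate a complex that contains STAT2 and IRF9 and binds the interferon-stimulated response element, a repeat of GAAA, in promoters of the genes described here. Interferon gamma acts through its own receptor and through a different promoter site, the gamma-activated site, as in the promoter of IRF1.

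The promoters of many members hold the letters of this element. RefSeq promoter windows (GRCh38.p14, 250 bases before to 50 after a gene start) were available for 34 of the 41 members and not used here for IFIT2, MX2, OAS2, OASL, IFITM2, USP18 and TRIM22. The element was searched as GAAA, any 2 bases and GAAA, or its complement TTTC, any 2 bases and TTTC. It matched in 23 of the 34 members (67.6%) and in 28 of their 47 windows (59.6%), compared with 3.57% of all 35116 windows. Of these 23 members, 14 held more than 1 match in a window. The 43 distinct matches began between positions -196 and 24 relative to the gene start, with a median of -91, and 38 of them lay before the start. A match is a description of the letters and does not show that a factor binds there. The following stretches end at or before the last base ahead of the gene start and show the matches in capitals. DDX60, SAMD9, IFI44 and PLSCR1 are shown because they passed the test in the mutants, and IFIT1 and ISG15 because they are among the most widely studied of these genes. IFIT1, ISG15 and IRF1 were chosen after their values were seen.
DDX60 (chr4:168318753-168319002, minus strand, from position -250): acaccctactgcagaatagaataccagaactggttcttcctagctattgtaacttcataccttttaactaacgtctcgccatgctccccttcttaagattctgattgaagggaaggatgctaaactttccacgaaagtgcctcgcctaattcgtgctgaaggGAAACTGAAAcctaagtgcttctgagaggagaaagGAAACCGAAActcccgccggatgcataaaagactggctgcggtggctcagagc
SAMD9 (chr7:93118076-93118145, minus strand, from position -166): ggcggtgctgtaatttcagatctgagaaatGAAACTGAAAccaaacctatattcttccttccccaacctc
IFI44 (chr1:78649741-78649788, plus strand, from position -48): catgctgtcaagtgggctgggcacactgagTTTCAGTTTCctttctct
PLSCR1 (chr3:146544647-146544716, minus strand, from position -121): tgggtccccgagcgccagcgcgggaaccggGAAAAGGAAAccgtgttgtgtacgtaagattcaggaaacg
IFIT1 (chr10:89392477-89392559, plus strand, from position -146): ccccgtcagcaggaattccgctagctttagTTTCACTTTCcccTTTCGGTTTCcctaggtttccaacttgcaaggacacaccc
ISG15 (chr1:1013354-1013429, plus strand, from position -143): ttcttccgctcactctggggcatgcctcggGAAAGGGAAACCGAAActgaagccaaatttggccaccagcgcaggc

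DDX60 has 2 matches, starting at positions -88 and -53. IFIT1 has 2 on the other strand at -116 and -103, and in ISG15 the 2 matches at -113 and -107 overlap. SAMD9, PLSCR1 and IFI44 have 1 each in the stretches shown. The gamma-activated site was searched as TTC, any 3 bases and GAA, which reads alike on both strands. It matched in 11 of the 34 members and in 27.7% of their windows, compared with 7.66% of all windows, and 5 pairs of matches to the 2 motifs overlapped. IRF1 held this motif and no match to the response element, as shown with the gamma-activated site motif in capitals.
IRF1 (chr5:132490859-132490927, minus strand, from position -154): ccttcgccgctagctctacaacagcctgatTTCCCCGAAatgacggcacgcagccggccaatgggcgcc

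**Figure D1:**
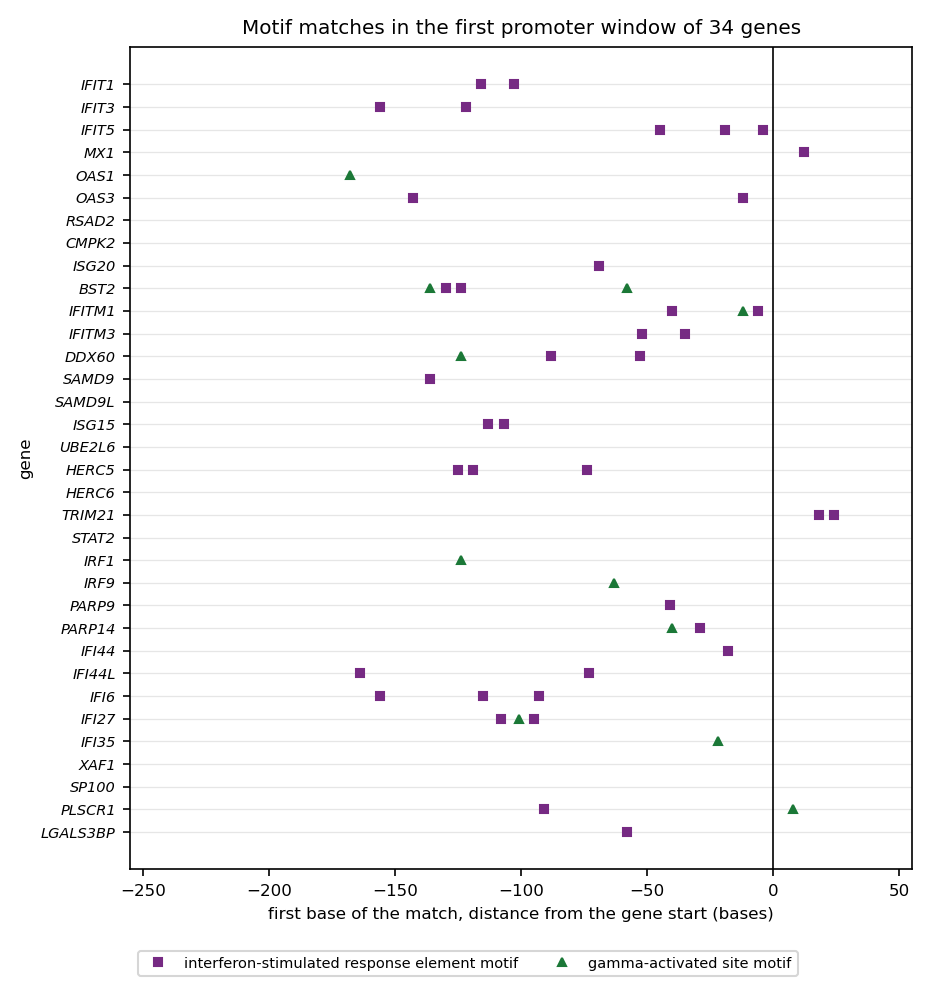
Position of motif matches in the promoter windows of 34 members. The horizontal axis gives the distance of the first base from the gene start in bases, each row is 1 gene (its first window where it has several), squares are response element matches and triangles gamma-activated site matches. Most squares lie between position -164 and the gene start, and OAS1, IRF1, IRF9 and IFI35 hold only triangles in the window shown.

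Most members had higher intensities in both kinds of mutant cell, but the WT arrays spread widely and few members passed the test. In LQ cells 36 of the 39 tested members had positive changes, with a median log2 change of 0.96, compared with 43.6% of all 14018 genes tested and a median of -0.09. In Ex4 cells it was 35 of 39, with a median of 0.93, compared with 43.6% of all genes and a median of -0.08. A log2 change above 1 was found in 18 members in LQ and 17 in Ex4 cells, compared with 2.89% and 2.43% of all genes. By limma 1 member, DDX60, passed in LQ cells (Benjamini-Hochberg adjusted p under 0.05 over 32768 probe sets), where 3.69% of all genes were called higher and 3.63% lower. None passed in Ex4 cells, where the share of genes called higher was 0%. There 12 of 39 members had an unadjusted limma p under 0.05, near the 27.2% of all genes that did. The mean of both mutants against WT, which uses the same WT arrays, called 6 members higher, DDX60, TRIM22, IFI44, PLSCR1, SAMD9 and IFIT2, and none lower, where 6.22% of all genes were called higher and 6.72% lower. The single LQ call is a share near the background. On the WT arrays alone 36 of the 39 members would have passed the filter on dim probe sets. SAMD9L, TRIM22 and XAF1 passed it only through the mutant arrays, so the TRIM22 call cannot count as support for a rise. In a population of cells, a change in the number of responding cells and in the RNA per cell cannot be told apart.

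**Figure D2:**
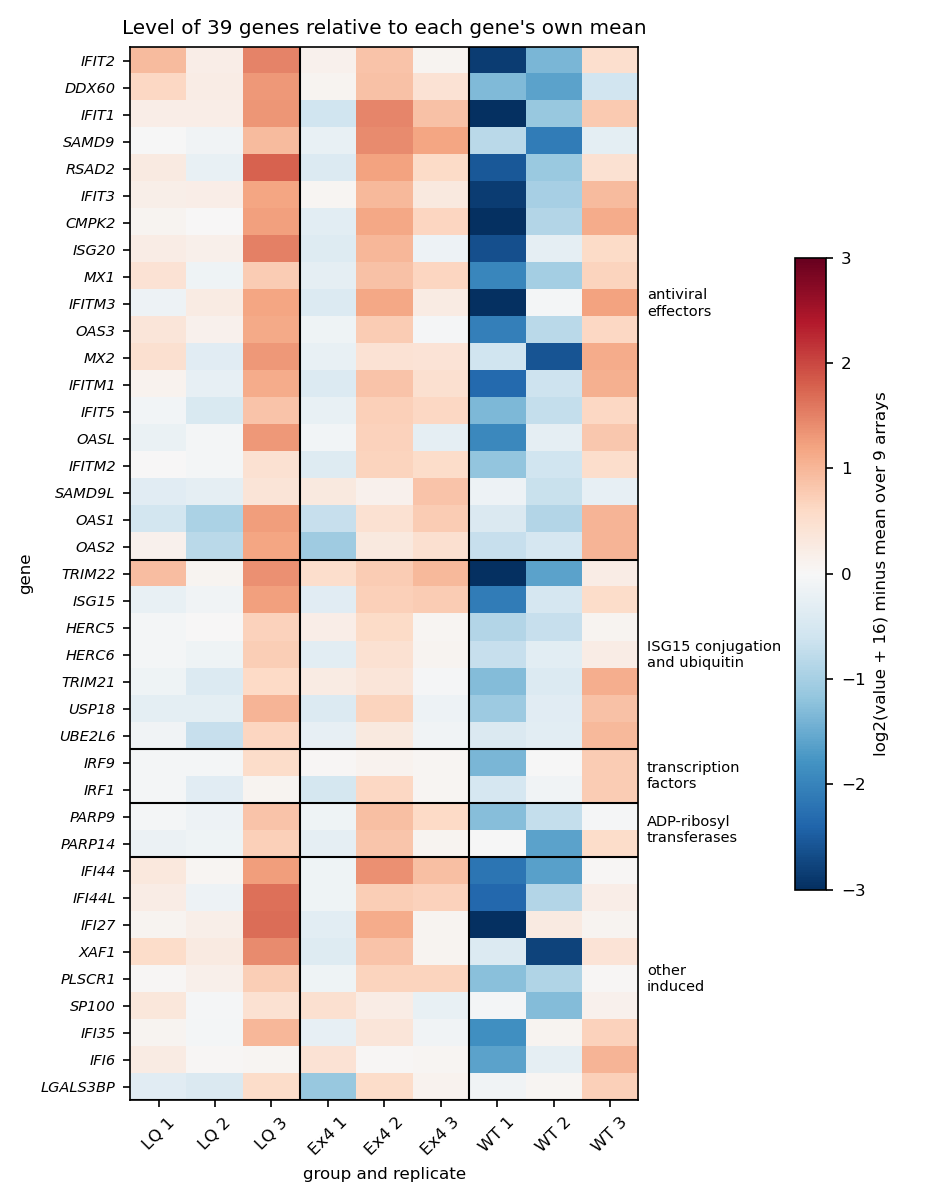
Level of the 39 tested members on each of the 9 arrays, as log2(value + 16) minus the gene's mean over the arrays (red higher, blue lower), grouped by role. WT replicate 1 is the lowest array for 27 members and LQ replicate 3 the highest for 23.

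The arrays within a group did not carry these genes at one level. For 27 of 39 members the lowest value came from WT replicate 1, compared with 12.7% of all genes, and for 23 of 39 the highest came from LQ replicate 3, compared with 8.21%. Among the WT arrays, replicate 3 was the highest for 37 of 39 members, compared with 31.8% of all genes. Its level exceeded the median of the mutant arrays for 26 of 39 members, near the 56.9% of all genes for which it did so, which WT replicate 2 did for 3 and WT replicate 1 for 1. The median member level on the log2 scale was 11.38, 11.07 and 11.94 on the LQ arrays and 11.17, 11.97 and 11.54 on the Ex4 arrays, against 9.80, 10.76 and 11.85 on the WT arrays, while that of all tested genes was 10.92 to 11.02. Within the mutants, LQ replicate 3 was the highest LQ array for 38 of 39 members, Ex4 replicate 2 the highest Ex4 array for 32 and Ex4 replicate 1 the lowest for 32. The shares of all genes were 36.1%, 34% and 37.8%. The median SD over members was 0.60 in LQ, 0.53 in Ex4 and 1.21 in WT cells on the log2 scale, compared with 0.19, 0.30 and 0.31 over all tested genes. The highest WT array was more than 2-fold above the lowest for 35 of 39 members and for 23.1% of all genes.

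The size of the changes depended on which WT array was included. Without WT replicate 1 the median log2 change of the members was 0.48 in LQ and 0.38 in Ex4 cells, with 28 members positive in LQ and 27 in Ex4 cells. Without WT replicate 3 it was 1.45 in LQ and 1.48 in Ex4 cells, with 38 members positive in each. With arrays weighted by their quality it was 0.35 in LQ and 0.48 in Ex4 cells, with 29 members positive in each. Only 2 members, DDX60 and SAMD9, had all 6 mutant arrays above all WT arrays, compared with 6.79% of all genes. LQ arrays alone lay above all WT arrays for 4 members (PLSCR1, DDX60, SAMD9 and IFI44), compared with 15.7% of all genes. Ex4 arrays did so for 4 (DDX60, SAMD9, TRIM22 and SAMD9L), compared with 9.07%. Of these, TRIM22 and SAMD9L passed the filter only through the mutant arrays. No member lay below all WT arrays on every LQ array, every Ex4 array or both, compared with 23.2%, 14.9% and 11.6% of all genes. Beside their background shares, the counts above all WT arrays are not a result about the members. The absence of members below all WT arrays lies under its background shares, a description for which no test was made.

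**Figure D3:**
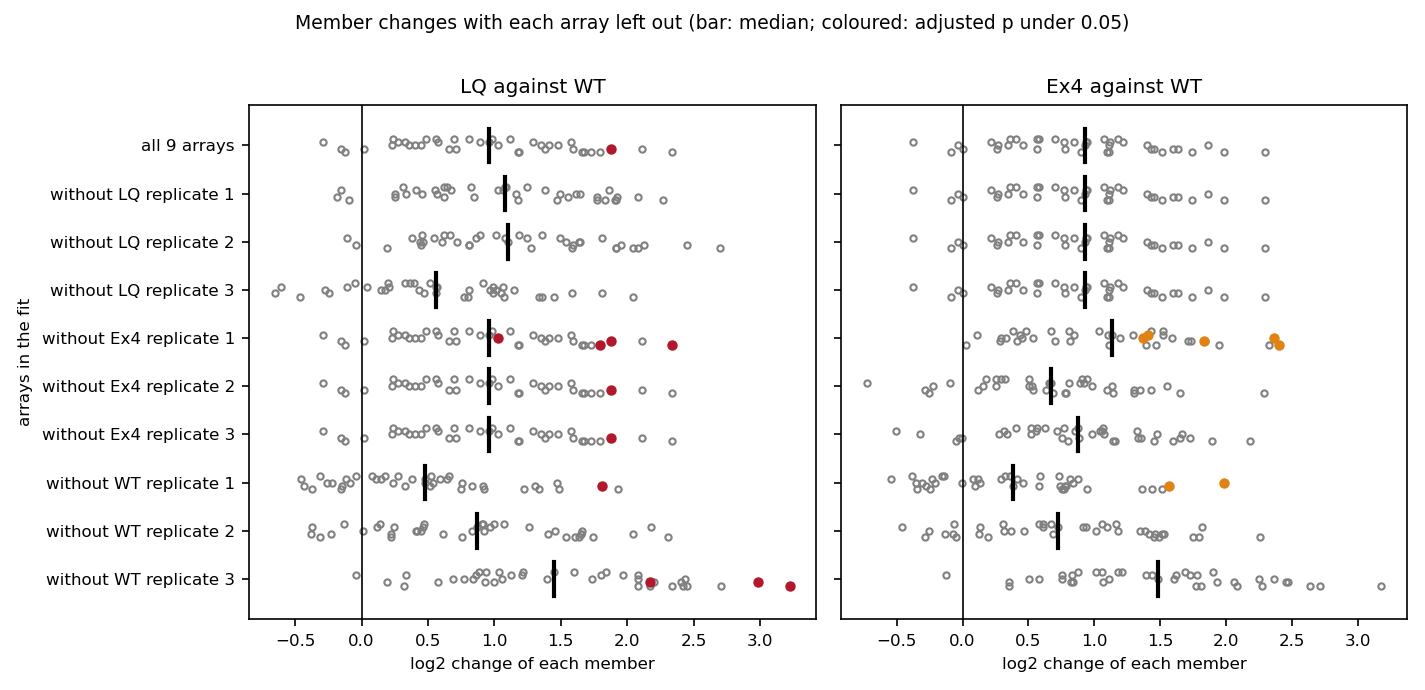
Log2 change of each tested member in LQ and Ex4 cells against WT, with all arrays and with each array left out in turn. Each circle is 1 member, the bar is the median and colour marks a limma adjusted p under 0.05. The median lies lowest without WT replicate 1, at 0.48 in LQ and 0.38 in Ex4, and highest without WT replicate 3.

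Of the antiviral effectors, 19 of 20 were tested, and 19 had positive changes in LQ and 18 in Ex4 cells, with medians of 1.19 in LQ and 0.94 in Ex4 cells. DDX60, a helicase that assists the RNA sensor RIG-I, had intensities of 3324, 2526 and 5349 in LQ cells and 2293, 3994 and 2957 in Ex4 cells, against 865, 698 and 1442 in WT cells. All mutant arrays were above all WT arrays. It rose 3.68-fold in LQ cells, a log2 change of 1.88 ± 0.33 (limma adjusted p = 0.0200), and had 1.64 ± 0.33 in Ex4 cells (adjusted p = 0.0763). With each array left out in turn, the LQ call held in 5 of 9 fits, lost without any LQ array or WT replicate 2, and that of both mutants together in 8 of 9, lost without WT replicate 2. SAMD9, a protein that restricts poxviruses, had 1542, 1454 and 3049 in LQ cells and 1339, 4186 and 3563 in Ex4 cells, against 878, 352 and 1276 in WT cells. The groups do not overlap, and the lowest array is WT replicate 2. Both mutants together rose 3.04-fold (log2 change 1.60 ± 0.44, adjusted p = 0.0391), while LQ and Ex4 alone had 1.35 ± 0.50 and 1.86 ± 0.50 (adjusted p = 0.107 and 0.0859). Its call held in 2 of 9 fits without 1 array, those without Ex4 replicate 1 and without WT replicate 1.

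The IFIT proteins bind foreign RNA that lacks the host cap marks. IFIT2 had 30512, 18338 and 44528 in LQ cells and 17412, 28731 and 16943 in Ex4 cells, against 2193, 6124 and 22721 in WT cells. WT replicate 3 lay within the mutant values, and both mutants together rose 3.61-fold (log2 change 1.85 ± 0.54, adjusted p = 0.0470). That call held in 2 of 9 fits without 1 array, those without Ex4 replicate 1 and without WT replicate 3, and in 5 of 10 other processing alternatives. LQ alone had 2.11 ± 0.63 and Ex4 alone 1.59 ± 0.63 (adjusted p = 0.0601 and 0.151). IFIT1 had 21604, 21471 and 46829.8 in LQ cells and 12435, 51775 and 34380 in Ex4 cells, against 2140.2, 8501 and 32403 in WT cells. IFIT3 had 17780.5, 17954 and 35309.8 in LQ cells and 16418, 30706 and 19104 in Ex4 cells, against 2170.4, 7842 and 30497 in WT cells. In both genes WT replicate 1 was far below and WT replicate 3 among the mutant arrays. Neither passed, with log2 changes for IFIT1 of 1.73 ± 0.78 in LQ and 1.74 ± 0.78 in Ex4 cells (adjusted p = 0.165 and 0.192). Without WT replicate 1 the change of IFIT1 in LQ cells was 0.75, and without WT replicate 3 it was 2.70. IFIT5, of the same family, had log2 changes of 0.58 in LQ and 0.84 in Ex4 cells.

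RSAD2 encodes viperin, an enzyme that makes a chain-terminating nucleotide. It had 3995, 2819.5 and 11425 in LQ cells and 2486, 7638 and 4966 in Ex4 cells, against 558, 1537 and 4586 in WT cells. WT replicates 1 and 2 were low and WT replicate 3 lay among the mutant arrays, and its log2 changes were 1.66 ± 0.68 in LQ and 1.51 ± 0.68 in Ex4 cells (adjusted p = 0.133 and 0.195). The second RSAD2 probe set had 2.60 in LQ and 2.49 in Ex4 cells, and passed for both mutants together (2.54, adjusted p = 0.048). CMPK2, a nucleotide kinase, had 1.38 in LQ and 1.43 in Ex4 cells. MX1, a GTPase that traps virus particles, had 3099.8, 2106 and 3914 in LQ cells and 1900, 4256 and 3586 in Ex4 cells, against 581, 1131 and 3686 in WT cells. OAS3, one of the enzymes that make the messenger activating RNase L, had 7337, 6255 and 12599 in LQ cells and 5212, 9663 and 5559.6 in Ex4 cells, against 1369, 3255 and 8752 in WT cells. For MX1 and OAS3 the WT range reached into the mutant range, and neither passed, with MX1 at 1.12 ± 0.53 in LQ and 1.18 ± 0.53 in Ex4 cells and OAS3 at 1.29 ± 0.52 in LQ and 0.94 ± 0.52 in Ex4 cells. OAS1 and OAS2 of the same family had small changes on their brightest probe sets. OAS1 stood at 0.02 ± 0.61 in LQ and 0.26 ± 0.61 in Ex4 cells, and OAS2 at 0.23 ± 0.57 in LQ and -0.04 ± 0.57 in Ex4 cells. The second OAS1 probe set had 0.77 in LQ and 0.27 in Ex4 cells. Further OAS2 probe sets had 0.26 and 0.35 in LQ cells, and -0.05 and 0.77 in Ex4 cells. The IFITM genes, whose proteins block virus entry at membranes, had 0.56 to 1.19 in LQ and 0.70 to 1.10 in Ex4 cells. OASL, an inactive relative of the OAS enzymes, had 0.81 in LQ and 0.58 in Ex4 cells. MX2, a restriction factor of retroviruses, had 1.18 in LQ and 0.90 in Ex4 cells, and SAMD9L, the neighbour of SAMD9, 0.28 in LQ and 0.77 in Ex4 cells. None of the 3 passed the test. The near-identical IFITM copies can share probes and are uncertain. BST2, under the filter, had 242, 74.8 and 462 in LQ cells and 63.1, 198 and 182 in Ex4 cells, against 55.9, 139 and 189.5 in WT cells, mostly below the array medians.

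**Figure D4:**
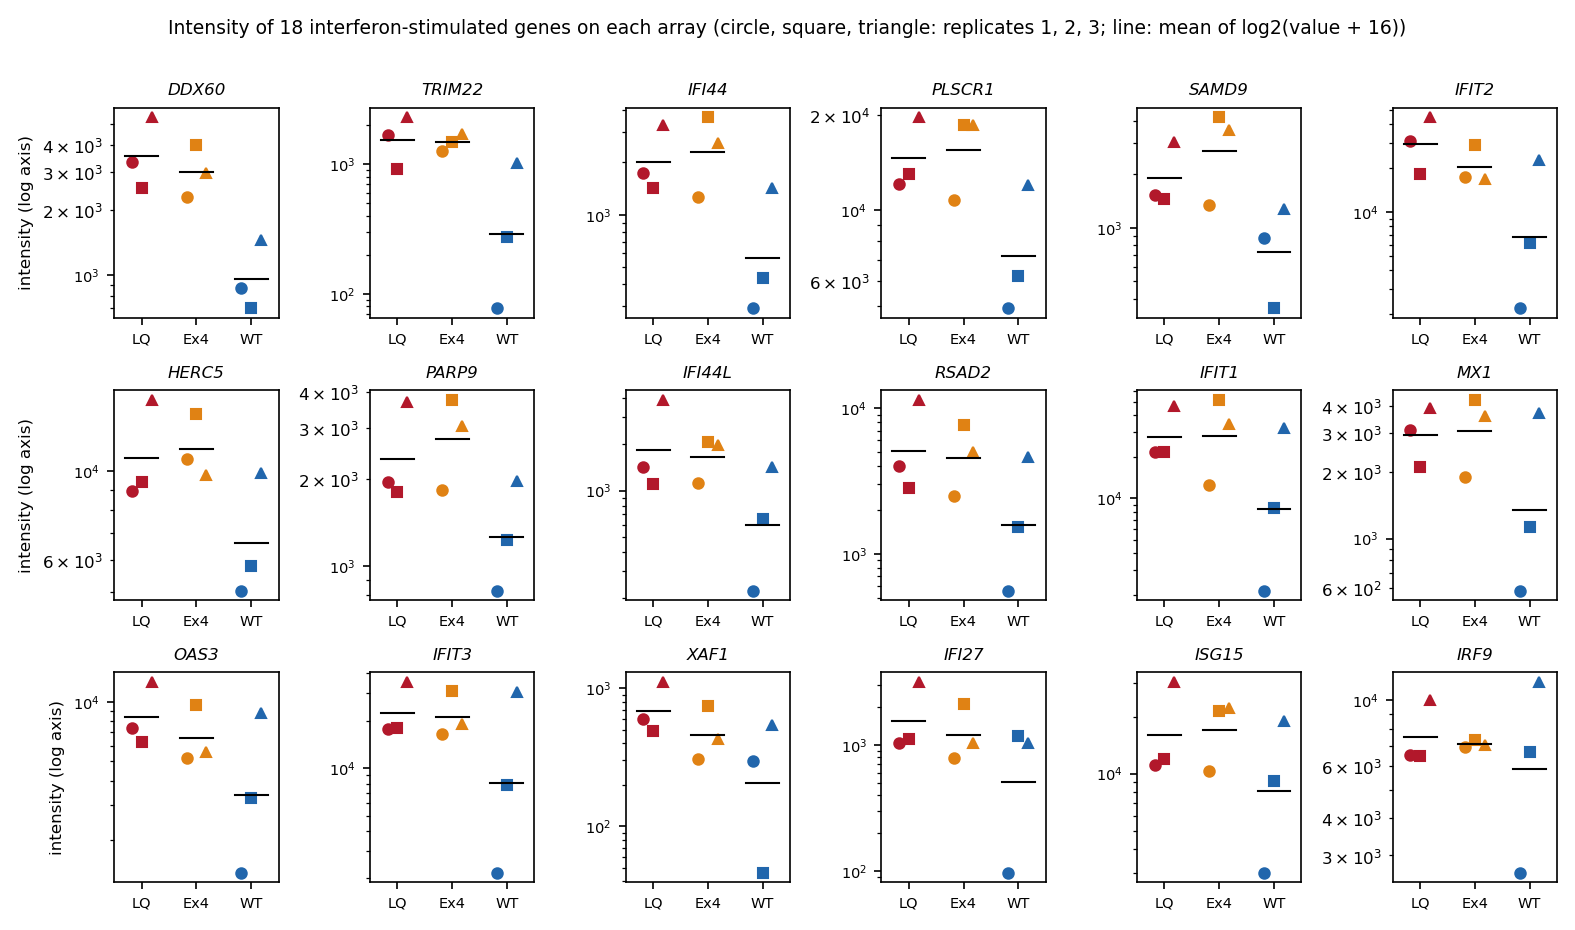
Intensity (log axis) of 18 members on every array, by group. Circles, squares and triangles are replicates 1, 2 and 3, and the line is the group mean of log2(value + 16). DDX60 and SAMD9 are the only panels in which all mutant arrays lie above all WT arrays.

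ISG15 is a ubiquitin-like protein that is joined to other proteins through UBE2L6 and HERC5 and removed by USP18. ISG15 had 11046, 11979.5 and 30469.6 in LQ cells and 10300, 21361 and 22075 in Ex4 cells, against 3001, 9184 and 18941 in WT cells. Its log2 changes were 0.98 ± 0.57 in LQ and 1.07 ± 0.57 in Ex4 cells (adjusted p = 0.272 and 0.262), and WT replicate 3 lay within the mutant range. HERC5, the ligase, had 8920, 9426 and 15117 in LQ cells and 10741, 13901 and 9792 in Ex4 cells, against 5038, 5812 and 9898 in WT cells, with log2 changes of 0.71 ± 0.27 in LQ and 0.78 ± 0.27 in Ex4 cells (adjusted p = 0.111 and 0.119). UBE2L6, the conjugating enzyme, had -0.12 in LQ and -0.09 in Ex4 cells, and USP18 0.33 in LQ and 0.22 in Ex4 cells. TRIM22, a ubiquitin ligase of the tripartite motif family, had 1669, 917 and 2285 in LQ cells and 1259, 1477 and 1710.1 in Ex4 cells, against 77.1, 274 and 1020.4 in WT cells. Every Ex4 array and 2 of 3 LQ arrays were above all WT arrays. Both mutants together rose 4.98-fold (log2 change 2.32 ± 0.57, limma adjusted p = 0.0315). The call held in 4 of 9 fits without 1 array, those without LQ replicate 2, Ex4 replicate 1, WT replicate 1 or WT replicate 3. TRIM22 passed the filter on dim probe sets only through the mutant arrays, so its call cannot count as support for a rise. WT replicates 1 and 2 lay below their array medians, and the change was 1.46 without WT replicate 1 and 3.20 without WT replicate 3, which leaves its size poorly measured. TRIM21, a ubiquitin ligase that binds antibodies inside cells, had 0.24 in LQ and 0.41 in Ex4 cells, and HERC6, a relative of HERC5, 0.45 in LQ and 0.34 in Ex4 cells. Of these 7 genes 6 had positive changes in each mutant, with medians of 0.45 in LQ and 0.41 in Ex4 cells.

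The transcription factors of the list stood close to WT on their brightest probe sets. IRF9 had 6538, 6489 and 10033 in LQ cells and 6943, 7329.9 and 7048 in Ex4 cells, against 2622, 6709 and 11533 in WT cells. The mutant arrays lay inside the WT range, with log2 changes of 0.35 ± 0.40 in LQ and 0.27 ± 0.40 in Ex4 cells (adjusted p = 0.582 and 0.703). Without WT replicate 1 they were -0.23 in LQ and -0.31 in Ex4 cells. IRF1, a factor induced mainly by interferon gamma, had -0.16 in LQ and -9.1e-05 in Ex4 cells. Its second, dimmer probe set differed, with 2.79 in LQ (adjusted p = 0.038) and 2.42 in Ex4 cells (adjusted p = 0.088). Which of the 2 probe sets reads the IRF1 transcript better was not tested. The ADP-ribosyltransferase PARP9 had 1950.2, 1810.2 and 3693 in LQ cells and 1831, 3762 and 3043 in Ex4 cells, against 825, 1231 and 1978 in WT cells, and log2 changes of 0.89 ± 0.37 in LQ and 1.12 ± 0.37 in Ex4 cells (adjusted p = 0.139 and 0.112). Its second probe set had -0.37 in LQ and -0.31 in Ex4 cells. PARP14, of the same family, had 0.49 in LQ and 0.56 in Ex4 cells, and on its second probe set -1.22 in LQ and -1.02 in Ex4 cells.

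**Figure D5:**
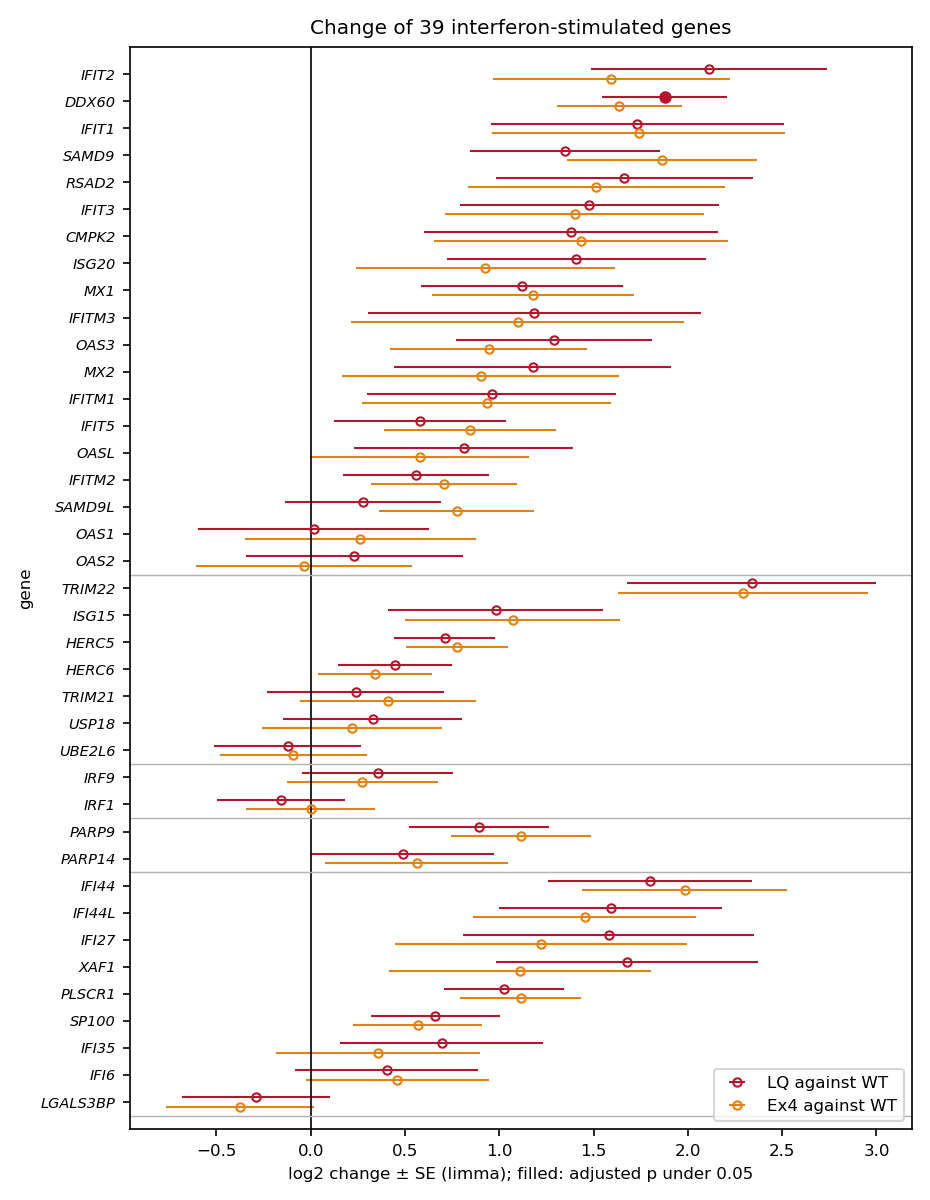
Log2 change of each tested member against WT with its SE from limma, for LQ and Ex4 cells, grouped by role. DDX60 in LQ cells is the only filled point (adjusted p = 0.0200). Most points lie above 0, and those of UBE2L6, IRF1 and LGALS3BP lie at or below it, as does that of OAS2 in Ex4 cells.

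Of the 9 other induced members, 8 had positive changes in each mutant, with medians of 1.03 in LQ and 1.11 in Ex4 cells. IFI44, a cytosolic protein induced by interferon, had 1726, 1427 and 3285 in LQ cells and 1265, 3619.6 and 2596 in Ex4 cells, against 289.7, 433 and 1422 in WT cells. All LQ arrays and 2 of 3 Ex4 arrays exceeded every WT array, and both mutants together rose 3.71-fold (log2 change 1.89 ± 0.47, adjusted p = 0.0319), held in 1 of 9 fits without 1 array, that without Ex4 replicate 1. PLSCR1, a membrane scramblase that restricts virus entry, had 12094, 13060.5 and 19630.3 in LQ cells and 10818, 18564 and 18526 in Ex4 cells, against 4907, 6229 and 11990.4 in WT cells. It rose 2.10-fold in both mutants together (log2 change 1.07 ± 0.28, adjusted p = 0.0350), held in 1 of 9 fits, again without Ex4 replicate 1. Its second tested probe set had 0.91 in LQ and 1.08 in Ex4 cells and passed for both mutants together (adjusted p = 0.047). The second probe sets of IFI44, SAMD9 and IFIT2, also called members, did not pass for both mutants together. Their log2 changes were 0.95, 1.14 and 2.07 (limma adjusted p = 0.116, 0.0540 and 0.0535).

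IFI44L, a relative of IFI44, had 1419, 1104 and 3886 in LQ cells and 1123, 2063 and 1973 in Ex4 cells, against 224, 652 and 1413 in WT cells, and log2 changes of 1.59 ± 0.59 in LQ and 1.45 ± 0.59 in Ex4 cells (adjusted p = 0.105 and 0.160). IFI27, a mitochondrial protein and a common marker of interferon response, had 1031, 1111 and 3166 in LQ cells and 780.2, 2116 and 1029 in Ex4 cells, against 96.4, 1178 and 1029.7 in WT cells. Here WT replicates 2 and 3 were among the mutant values and only WT replicate 1 was low, and the LQ change of 1.58 ± 0.77 became 0.48 without it. XAF1, which binds the apoptosis inhibitor XIAP, had 602, 489.9 and 1116 in LQ cells and 307, 741 and 429.6 in Ex4 cells, against 299, 45.9 and 540.4 in WT cells. WT replicate 2 was the lowest there, and the change of 1.68 ± 0.70 in LQ cells did not pass (adjusted p = 0.137). Its other probe sets had 0.08 and -1.23 in LQ cells, and -0.12 and -0.48 in Ex4 cells. SP100, a protein of nuclear bodies, had 0.66 in LQ and 0.57 in Ex4 cells. IFI35, a partner of NMI, had 0.69 in LQ and 0.36 in Ex4 cells, and IFI6, an inhibitor of apoptosis, 0.40 in LQ and 0.46 in Ex4 cells. LGALS3BP, a secreted glycoprotein, had -0.29 in LQ and -0.38 in Ex4 cells.

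Of the 39 tested members, 17 had further tested probe sets, 22 in all. Their sign was that of the representative one for 17 of 22 in LQ and 14 of 22 in Ex4 cells. The second probe set of ISG20, an exonuclease that degrades RNA, rose in LQ cells (3.33, adjusted p = 0.024), while the brighter one had 1.41 (adjusted p = 0.20). Of the 32 tested members with a promoter window, the 22 with a response element match had median log2 changes of 1.15 in LQ and 1.11 in Ex4 cells, and the 10 without had 0.40 in LQ and 0.35 in Ex4 cells, a description for which no test was made.

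LQ and Ex4 cells were compared directly to ask whether the 2 mutants differ. No member passed by limma (the smallest unadjusted p was 0.25, and 0% of all genes were called higher or lower). The differences, LQ minus Ex4, ran from -0.51 for SAMD9 to 0.57 for XAF1, with a median of 0.05 and SE of 0.27 to 0.88. With SE of this size, 3 arrays a group cannot show small differences between the mutants. The median difference was -0.30 without LQ replicate 3 and 0.28 without Ex4 replicate 2, the arrays that are highest for these genes in their groups.

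Upstream genes were read from lists of the pathway. Of 21 interferon genes, 5 were tested, 13 lay under the filter and 3 were not analysed here. IFNB1, interferon beta, had 1787, 1006 and 3347 in LQ cells and 1287, 4238 and 1753 in Ex4 cells, against 187, 208 and 1599.8 in WT cells. WT replicates 1 and 2 were below their array medians, and WT replicate 3 lay among the mutant values. Both mutants together rose 4.73-fold (log2 change 2.24 ± 0.63, adjusted p = 0.0419), and LQ and Ex4 alone had 2.13 ± 0.72 and 2.35 ± 0.72 (adjusted p = 0.0845 and 0.0993). The call held in 2 of 9 fits without 1 array, those without Ex4 replicate 1 and without WT replicate 3. IFNL2, a lambda interferon whose close copies can share its probes, had 1051, 677 and 1748 in LQ cells and 1009.7, 3186 and 1346 in Ex4 cells, against 196, 600.4 and 1627 in WT cells and did not pass.

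Of 9 tested genes for receptors and kinases, 1 rose. IFNGR1, a chain of the interferon gamma receptor, had 11792, 12146 and 12217 in LQ cells and 10421, 12728 and 14209 in Ex4 cells, against 9058, 7811 and 6786 in WT cells. The mutant arrays were all above the WT arrays, a rise of 1.54-fold in LQ cells (log2 change 0.62 ± 0.16, adjusted p = 0.0454) with 0.66 ± 0.16 in Ex4 cells (adjusted p = 0.0801), and the LQ call held in 3 of 9 fits without 1 array. The receptor chains of interferon beta stood near WT, with IFNAR1 at 0.31 ± 0.29 in LQ and 0.11 ± 0.29 in Ex4 cells and IFNAR2 at -0.19 ± 0.17 in LQ and -0.11 ± 0.17 in Ex4 cells. JAK1 had -0.10 ± 0.16 in LQ and -0.04 ± 0.16 in Ex4 cells, and TYK2 -0.34 ± 0.20 in LQ and -0.48 ± 0.20 in Ex4 cells, none of which passed. IFNAR2, JAK1 and TYK2 turned positive when each array was centred on its median. Of 7 negative regulators none passed. PTPN1, a phosphatase acting on JAK kinases, had -0.95 ± 0.36 in LQ and -0.93 ± 0.36 in Ex4 cells (adjusted p = 0.109 and 0.145), and PTPN6, another phosphatase, -0.56 ± 0.25 in LQ and -0.75 ± 0.25 in Ex4 cells.

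Of 43 further interferon-responsive genes, 33 were tested. In LQ cells 1 rose and 3 fell, in Ex4 cells none passed, and in both together 3 rose and 3 fell, with 26 positive in LQ, 25 in Ex4 and 26 in both. The 1 rise in LQ cells is near the 3.69% of all genes called higher. The 3 falls there are a larger share than the 3.63% called lower, a description for which no test was made. In both mutants the calls lie not far above the 6.22% and 6.72% of all genes. Of all genes, 43.6% were positive in LQ and in Ex4 cells. IFIH1, the gene of the RNA sensor MDA5, had 5132, 2979 and 8652 in LQ cells and 3972, 6528 and 3997 in Ex4 cells, against 1087, 1292 and 3111 in WT cells. It rose 3.09-fold in LQ cells (log2 change 1.63 ± 0.42, limma adjusted p = 0.0438). Over 11 other processing alternatives this change ranged from 0.80 to 2.21, and the call held in 7. NMI, a partner of STAT proteins, and CCL5, a chemokine, rose 2.15-fold and 2.35-fold in both mutants together (adjusted p = 0.0409 and 0.0456). APOL6 had 302, 286 and 286 in LQ cells and 422, 529 and 516 in Ex4 cells, against 1103, 1036 and 809 in WT cells, and PARP10 294, 273 and 144 in LQ cells and 468, 284 and 117 in Ex4 cells, against 906, 867 and 811 in WT cells. Both fell in LQ cells, with log2 changes of -1.69 ± 0.30 and -1.85 ± 0.49 (adjusted p = 0.0206 and 0.0462), to levels below the LQ array medians, so that the sizes are not well measured. PML, a nuclear body protein, fell by 0.85 on the log2 scale in LQ cells (adjusted p = 0.0485), but had 0.67 when its probe sets were averaged. With 1 array left out the LQ calls held in 2 of 9 fits for IFIH1, 4 for APOL6, 2 for PARP10 and 2 for PML, and those of NMI and CCL5 in both mutants together in 1, without Ex4 replicate 1. After quantile normalization none of these LQ calls passed, nor that of IFNGR1, and no fall in APOL6, PARP10 or PML was called in both mutants together.

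Of 11 markers of blood cells, which are not part of this line, 2 passed the filter and 7 lay below the array median on every array. CD79A, a B cell marker, was not low, at 684, 747 and 694 in LQ cells and 897, 618 and 526 in Ex4 cells, against 1081, 1215 and 1178 in WT cells, above the median of every array and a large part of the sums. Their summed intensity was 1635 to 2116 in LQ, 1829 to 2386 in Ex4 and 3360.3 to 4162 in WT cells. PTPRC, the marker of all white blood cells, had at most 77.1 in LQ, 83.9 in Ex4 and 194.9 in WT cells. The mutant sums lay below those of WT cells, as did the array medians, at 303.9 to 434.3 in the mutants against 506.4 to 524.4 in WT cells. Whether the lower sums go beyond this difference was not tested, nor was the part of these markers in the results for the members.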

How the data were processed

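RNA of 9 samples of HEK293 cells was measured on Affymetrix arrays. The deposited values are linear intensities, 1 per probe set, and the submitters' processing notes name MAS5, with no version. This method scales each array to a common mean, and the deposited scaling was kept. The arrays' number limits precision, and detection calls were not used here.

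Of 54675 probe sets, 62 controls were left out. Of the other 54613, 41091 carried 1 gene symbol in the platform annotation, 1801 several and 11721 none. Current symbols came from RefSeq by gene identifier, except on 54 probe sets that kept the annotated one. The filter removed probe sets whose mean log2(value + 16) was below percentile 40. This left 32768 for testing, which represent 14018 genes. limma 3.58.1 in R 4.3.3 (lmFit, contrasts, eBayes with trend) used the 9 arrays together, with no term for replicate number, two-sided, with Benjamini-Hochberg adjustment over the tested probe sets of a contrast. Fold changes are on the log2(value + 16) scale, which understates dim genes. The fit was tested on simulated data with independent noise and the same spread in all groups. That setting lacks the wide WT spread of the members, so it does not bear on their calls.

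The members and lists were chosen with earlier results of these data known. Values on every array are given for the 16 members with the smallest p in both mutants against WT, all called members and the brightest of each role group. For the pathway lists, IFNB1, receptors, kinases, called genes and the 2 smallest p per list are named. Alternatives were pseudocounts of 1 and 64, quantile normalization, median centring, other filters, the averaging of all probe sets of a gene, array weights, the replicate block, each array left out, a fit of the compared groups alone and eBayes with no trend.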

Additional observations from a re-analysis of the deposited data

How the results depend on the processing

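Against WT, the median of the members stayed positive under every alternative run, while the number that passed the test changed. In LQ cells, where 1 member was called, 2 were called with a pseudocount of 64, 2 with a filter at percentile 60, 3 with all probe sets of a gene averaged and 17 with median centring of each array, where 8.45%, 10.1%, 7.88% and 30.2% of all genes were called in either direction, compared with 7.32% in the fit reported. In Ex4 cells, where none was called, 9 were called with median centring and 2 with array weights, where 19.3% and 18.3% of all genes were called. For both mutants together 6 were called, 23 with median centring, 1 (DDX60) with no variance trend, 4 with quantile normalization, 4 with array weights and 5 with no filter, where 34.8%, 4.61%, 7.56%, 30.2% and 6.90% of all genes were called, compared with 12.9% in the fit reported. Median centring moved the median of all genes to 0.49 in LQ, 0.41 in Ex4 and 0.45 in both, against -0.09, -0.08 and -0.08 as deposited, and the members' medians to 1.54, 1.41 and 1.54. Leaving out 1 array gave 0 to 4 calls in LQ, 0 to 5 in Ex4 and 0 to 11 in both mutants together, the highest counts each without Ex4 replicate 1, where 14.0%, 13.8% and 23.0% of all genes were called, and no LQ call was left without any 1 of the LQ arrays or without WT replicate 2. With 1 array left out the member median was 0.48 to 1.45 in LQ, 0.38 to 1.48 in Ex4 and 0.35 to 1.44 in both. With array weights it was 0.35 in LQ, 0.48 in Ex4 and 0.48 in both, with 29 of 39 members positive in each. LQ against Ex4 gave 0 calls throughout, but its member median of 0.05 became -0.22 with array weights, -0.30 without LQ replicate 3 and -0.15 without Ex4 replicate 1.

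Of the other pathway genes, 5 of 54 tested were called in LQ cells, compared with 7.32% of all genes. There were 0 calls with quantile normalization, 25 with median centring and 3 of 76 with no filter. No variance trend gave 1, and the mean of probe sets 2. In those settings 3.41%, 30.2%, 3.34%, 1.24% and 7.88% of all genes were called. In Ex4 cells none was called, 15 with median centring and 5 with array weights, where 19.3% and 18.3% of all genes were called. In both mutants together 8 were called, compared with 12.9% of all genes. Quantile normalization gave 3, median centring 29, no variance trend 2 and the mean of probe sets 5. There 7.56%, 34.8%, 4.61% and 12.8% of all genes were called. Leaving out 1 array gave 0 to 8, 0 to 11 and 0 to 15 calls in LQ, Ex4 and both. The highest counts each came without Ex4 replicate 1, where 14%, 13.8% and 23% of all genes were called.

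Some signs turned. With median centring, in LQ, Ex4 and both, IFNAR2 had 0.39, 0.38 and 0.39, JAK1 0.48, 0.45 and 0.46 and TYK2 0.25, 0.0054 and 0.13, and PTPN6 had 0.020 in LQ cells. With array weights IRF9 had -0.16, -0.18 and -0.17, and JAK1 0.011 in Ex4 cells. PML had 0.67, 0.49 and 0.58 with the mean of its probe sets. With 1 array left out, IRF9 ranged from -0.23 to 0.84, from -0.31 to 0.76 and from -0.27 to 0.80, and in Ex4 cells JAK1 from -0.17 to 0.050 and IFNAR1 from -0.095 to 0.38. The cause was not tested, beyond the shift that centring gives to all genes.

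The replicate numbers were checked as pairs. Deviations of same-numbered arrays had correlations of -0.08 to 0.19, against -0.23 to 0.16 for arrays of different number. They were not above 0.1 in every pair, and no term for the number was used. Whether same-numbered arrays were handled together cannot be told from these correlations. With the replicate block 6 members were called in LQ and 12 in both mutants together, where 7.24% and 13.5% of all genes were called. The fit reported called 1 and 6 members, and 7.32% and 12.9% of all genes.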

Other observations

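The lowest WT array was not the same for all members. Among the WT arrays it was replicate 1 for 31 of 39 members, IFIT1, IFIT2, IFIT3 and IFI27 included, compared with 43.1% of all genes. For the other 8, namely DDX60, SAMD9, SAMD9L, MX2, OAS1, XAF1, PARP14 and SP100, it was replicate 2, compared with 29.7% of all genes. These genes were named after their values were seen, and why the arrays differ was not tested.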
